A study of Mus musculus with 6 samples.

Results

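The genes described here are 10 immediate-early stress genes, namely Fos, Fosb, Jun, Junb, Jund, Egr1, Ier2, Dusp1, Atf3 and Zfp36, which were chosen by name and found by their Ensembl identifiers among 49315 counted genes. They were followed in RNA-seq libraries from 3 sorted mouse bone marrow populations, long-term hematopoietic stem cells (LT-HSCs), short-term hematopoietic stem cells (ST-HSCs) and multipotent progenitors (MPPs). Each population was sorted from wild-type (WT) C57BL/6 mice of 8 to 12 weeks and from ING4-/- mice, which lack the tumor suppressor and chromatin reader ING4. The study compared the 3 ING4-/- populations together against the 3 WT populations to ask how loss of ING4 changes stem and progenitor transcription. All cells came from the lineage-depleted, Sca1+ cKit+ CD48- fraction, and were gated CD34- CD150+ for LT-HSCs, CD34+ CD150+ for ST-HSCs and CD34+ CD150- for MPPs. Marrow of 8 to 10 mice was pooled for a sort of 1000 to 10000 cells, and each of the 6 combinations of genotype and population was 1 library. The age of the ING4-/- mice in these pools is not given in the sources used here, nor is the strain of the ING4-/- colony, and no treatment is named for either genotype. Where 3 values are given for a genotype, they are those of LT-HSCs, ST-HSCs and MPPs in that order.

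Immediate-early genes are transcribed within minutes of a growth factor, cytokine or stress signal, without need for new protein synthesis, because their promoters are already occupied by factors that MAP kinases and other kinases switch on. Their products are unstable and include the subunits of AP-1, a dimeric transcription factor of the Fos, Jun and ATF families, as well as inhibitors that shut the response down again. Enzymatic or mechanical dissociation and sorting of fresh tissue can itself switch these genes on, so that in sorted marrow cells their level can reflect handling as well as the state of the cells in the animal.

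The genes share a compact build, which the choice by name did not use. Their exons summed to a median of 2524.5 bases, against 3231 bases for all protein-coding genes of the GENCODE M21 annotation, and their loci spanned a median of 3427 bases, against 17107. The exons of 4 of the 10, Jun, Jund, Ier2 and Zfp36, formed 1 unbroken block, as did those of 7.07% of protein-coding genes. Blocks were merged over all counted exons of a gene, so that 1 block need not mean a gene without introns. For Zfp36 the RefSeq transcript start (28379228) lay inside its block (28376784 to 28380253). Atf3 was the exception in span, at 47744 bases.

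Promoter sequence was read for 8 of the 10 genes from RefSeq (build GRCm38.p6), in windows reaching from 250 bases before to 50 bases after the transcript start; Ier2 and Egr1 were not matched. Because these genes are known for promoters that signalling factors already occupy, the stretches before the first counted base of Fos, Jun and Dusp1 are shown 5′ to 3′ on the gene's strand, with matched motifs in capitals. They lie at chr12:85473640-85473889 (plus strand), chr4:95052223-95052472 (minus strand) and chr17:26508520-26508722 (minus strand).
Fos: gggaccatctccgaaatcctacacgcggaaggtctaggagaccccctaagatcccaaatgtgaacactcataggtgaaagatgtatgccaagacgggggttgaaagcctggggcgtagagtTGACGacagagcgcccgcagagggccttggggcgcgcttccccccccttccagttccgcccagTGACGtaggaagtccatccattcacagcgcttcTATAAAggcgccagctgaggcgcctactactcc
Jun: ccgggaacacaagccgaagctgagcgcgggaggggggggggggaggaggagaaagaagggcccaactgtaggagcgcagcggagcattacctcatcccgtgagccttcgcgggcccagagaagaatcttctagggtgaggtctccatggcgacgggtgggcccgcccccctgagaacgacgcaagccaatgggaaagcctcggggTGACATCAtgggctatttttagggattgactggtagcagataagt
Dusp1: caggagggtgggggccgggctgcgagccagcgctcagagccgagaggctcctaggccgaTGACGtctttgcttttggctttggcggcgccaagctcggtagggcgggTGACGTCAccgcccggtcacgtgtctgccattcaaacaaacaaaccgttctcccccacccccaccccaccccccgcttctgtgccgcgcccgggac
In Fos the capitals mark TGACG, the core of the sites that CREB and ATF factors bind, and the TATA box letters TATAAA. In Jun they mark TGACATCA, a variant of the AP-1 site that Jun-ATF dimers are known to bind, and in Dusp1 they mark TGACG and the full cyclic AMP response element TGACGTCA, which contains it. Both strands of the whole windows were searched.

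TGACG was found in 5 of the 8 windows (Fos, Fosb, Junb, Dusp1 and Atf3), against 20.8% of 32851 RefSeq promoter windows of the same length. TGACGTCA was found only in Dusp1 (1.79% of all windows), and TGACATCA only in Jun (3.62%), where it lay at -45 to -38 from the transcript start. A serum response element of the CArG box type was found only in Zfp36, as CCATAAAAGG at -58 to -49 (1.63% of all windows), and the Egr site GCGNGGGCG in Fosb and Zfp36 (5.55%). TATAAA occurred in Fos and Junb (13.6%), and the canonical AP-1 site TGACTCA in none of the 8 (5.20%). The TGACG and TGACATCA searches were added after these windows had been seen, and a match is a description of letters, not of factor binding.

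The libraries of the 2 genotypes differed in make-up, which bears on every comparison between them. WT libraries held 7839326 to 9363442 counts and ING4-/- libraries 35596876 to 39192588. Olfactory and vomeronasal receptor genes, which marrow cells do not use, carried 18.3 to 23.0 counts per kb of exon in WT libraries and at most 0.0811 in ING4-/- libraries. Spread over all exons, that density would amount to 22.9% to 33.8% of WT counts and at most 0.0267% of ING4-/- counts. It is called the background here, and it cannot be told apart from genotype because it follows genotype in all 6 libraries. The targeted gene Ing4 had 247, 162 and 247 counts in WT, where the background would give 121, 122 and 97.5, and 0, 24 and 76 counts in the ING4-/- libraries, with 34.9% of its exonic bases shared with Gm44597 on the same strand. Ing4 was called lower in ING4-/- (edgeR quasi-likelihood adjusted p = 0.0373). Of the sort markers, Slamf1 (CD150) was highest in LT-HSCs and Cd34 highest in MPPs in both genotypes, and Kit was detected at 378 to 999.8 CPM in every library. Cd48, which the gate selected against, stood at 5.27, 16.6 and 36.9 CPM in WT and at 0, 34.1 and 126.8 CPM in ING4-/-, the last 2 from 1077 and 4300 counts, so that its transcript was present in ST-HSC and MPP libraries labelled CD48-. Ly6a, which encodes Sca1, was called higher in ING4-/- (log2 fold change 2.14, adjusted p = 0.0205, edgeR). CPM is a count scaled to a common library total, here normalized by TMM, which corrects for total counts and for composition, unless given per kb.

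Of the 10 genes, 7 were among the most abundant transcripts of these cells. Fos, Jun, Dusp1, Ier2, Egr1, Junb and Zfp36 ranged from 54.7 to 864 CPM per kb of exon, without TMM scaling, over the 6 libraries, a level per length that put each of them above at least 97.1% of all counted genes in every library. Their WT counts were at least 42.4 times the background for their exon length. Together the 10 genes took 0.769%, 0.560% and 0.912% of all counts in WT, and 0.721%, 0.295% and 0.372% in the ING4-/- libraries.

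Fosb, Atf3 and Jund formed a low tier, at 0.994 to 27.7 CPM per kb. In WT libraries Fosb was 1.39 to 3.47 times and Atf3 1.90 to 6.84 times the background for its length. Jund had 13 counts in WT LT-HSCs, where the background would give 37.8, so that its level there was not above the background. Gm11175 covers 52.6% of the exonic bases of Jund on the opposite strand and had 0 counts in all 6 libraries. All 877 exonic bases of Gm11175 lie in Jund, and the WT background was 18.3 to 23.0 counts per kb. Whether reads on the shared bases were dropped from both genes in counting was not tested. The level of Jund per length and its comparison with the background are therefore uncertain. The RefSeq transcript start of Jund lies 1210 bases before its counted exon.

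In the order of the genes by level per length, Jun stood higher in WT than in ING4-/- libraries. Fos ranked highest of the 10 in all 3 ING4-/- libraries and in WT LT-HSCs, whereas Jun ranked highest in WT ST-HSCs and MPPs. Jun stood at 586 CPM per kb in WT ST-HSCs (95% counting interval 577 to 596) and at 126 in ING4-/- ST-HSCs (124 to 128). In ING4-/- libraries Jun ranked 4 or 5 of the 10, below Fos, Dusp1 and Ier2 in each. Counting intervals here and below are exact Poisson or binomial intervals, and cover neither the variation between animals nor that between library preparations.

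**Figure D1:**
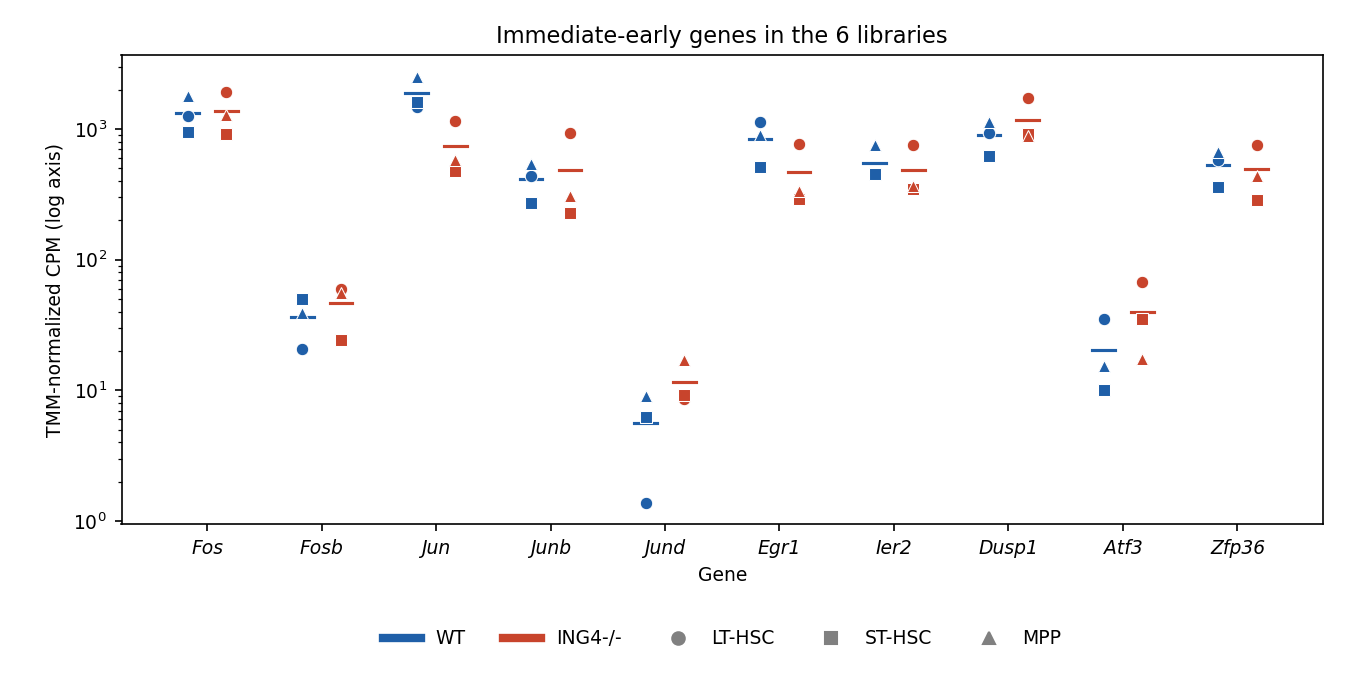
Normalized level of each immediate-early gene in each library, as TMM-normalized CPM on a log axis. Points are libraries, with color for genotype and shape for population, and each horizontal bar is the mean of 3 libraries. For Jun the 3 ING4-/- points lie below the 3 WT points, and for each other gene the genotypes overlap.

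Jun, the AP-1 subunit that can pair with itself as well as with Fos and ATF proteins, was called lower in ING4-/- cells. Jun stood at 1491, 1620.2 and 2531 CPM in WT. In ING4-/- libraries it stood at 1155, 480.4 and 577 CPM. All 3 ING4-/- libraries were lower than all 3 WT libraries, with the LT-HSCs closest to each other and the MPPs farthest apart. The means were 1881 ± 567 CPM (SD, n = 3) in WT and 737 ± 365 CPM (SD, n = 3) in ING4-/-, a log2 fold change of -1.35 ± 0.37 (SE), with an adjusted p of 0.0146 by edgeR's quasi-likelihood test over all genes.

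Jun was the 1 member of 10 called at an adjusted p under 0.05 with an absolute log2 fold change over 1. The same rule called 64.6% of the 31001 genes tested, 56.7% lower and 7.98% higher in ING4-/-, and the genotypes did not overlap for 74.9% of the genes tested. The median log2 fold change was 0.14 for the 10 genes, with 6 positive and 4 negative, and -6.85 for all genes tested. The positive count was 4 with DESeq2 size factors and 8 with upper-quartile scaling. With at least 10 counts in every library, 18% of 9673 genes were called, and the members' median fell to -0.34 (2 of 10 positive) while that of all genes was 0.02. With the background subtracted, 44.2% were called and the medians were -0.63 (3 of 10 positive) and -0.91, and with both steps together 9.82% were called and the medians were -0.82 (2 of 9 positive) and 0.03. Whether the members lay above or below the median gene thus depended on these steps, and no direction is given for the 10 genes as a group. The call on Jun was lost without the WT MPP library (log2 fold change -1.19, adjusted p = 0.0539) and under upper-quartile normalization (-0.75, adjusted p = 0.109), and its log2 fold change remained negative in every alternative run. With population as a replicate block it was -1.43 (adjusted p = 0.0369).

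The ratio of Jun to another member within a library does not depend on how libraries are scaled. Per kb of exon, Jun counts were 0.869, 1.26 and 1.04 times the Fos counts in WT, and 0.439, 0.388 and 0.331 times in the ING4-/- libraries. Against Junb, a Jun relative that often acts in opposition to it, the per-kb ratio was 2.45, 4.33 and 3.40 in WT and 0.891, 1.53 and 1.36 in ING4-/-. Both ratios were lower in every ING4-/- library than in any WT library. Among 9672 other genes that passed that minimum of 10 counts, 9.78% were lower in the same way relative to Fos and 7.64% relative to Junb, while 63.8% were higher in every ING4-/- library relative to Jun. These pairs were chosen after their values were seen. Of all 45 pairs of members 16 did not overlap between genotypes, and Jun was a partner in 8 of them. For those other genes the share that did not overlap ran from 13.7% relative to Atf3 to 65.4% relative to Jun. The count of pairs is therefore not read as a trait of the members. Zfp36 to Dusp1 was 1 of the 16 (0.456 to 0.478 in WT and 0.243 to 0.381 in ING4-/-), where 28.1% of genes did not overlap relative to Dusp1. Junb to Fos (0.292 to 0.354 and 0.244 to 0.493), Dusp1 to Fos (0.548 to 0.648 and 0.606 to 0.873) and Fosb to Fos (0.00618 to 0.0199 and 0.00997 to 0.0163) overlapped. Junos, a transcript antisense to Jun, overlaps 7.28% of the exonic bases of Jun and had 113 to 132 counts in WT and 0 to 51 in ING4-/- libraries, where Jun had 14159 to 25793 and 15193 to 36152.

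**Figure D2:**
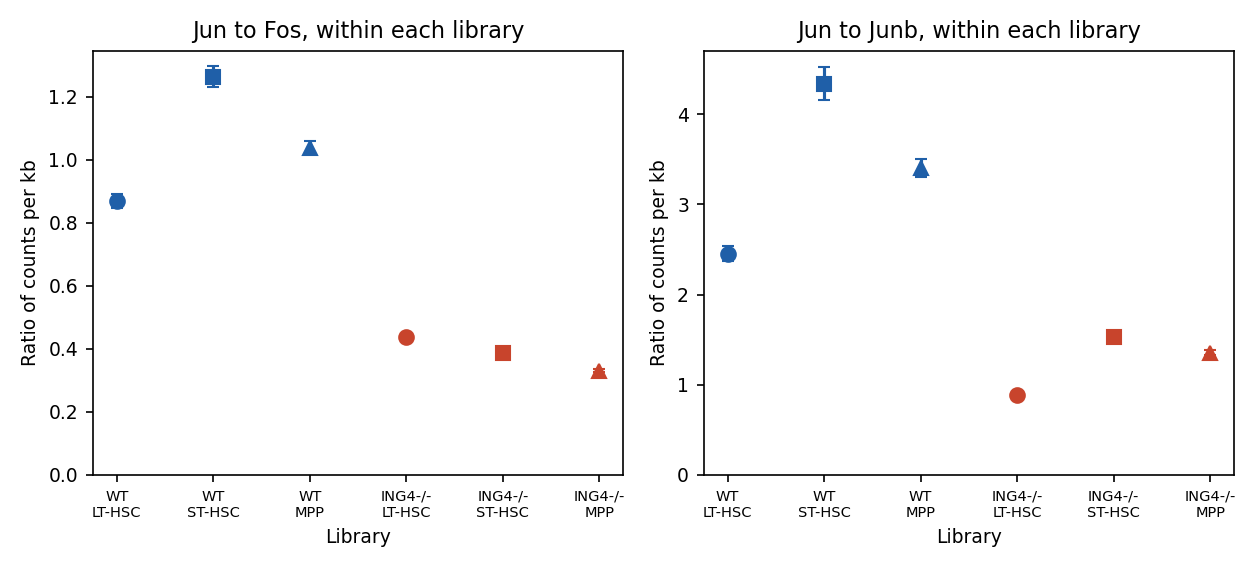
Ratio of Jun to Fos (left) and of Jun to Junb (right) within each library, each as counts per kb of exon over counts per kb, with 95% counting intervals. Jun to Fos was 0.869 to 1.26 for WT and 0.331 to 0.439 for ING4-/- libraries, and Jun to Junb 2.45 to 4.33 and 0.891 to 1.53.

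Fos, which enters AP-1 as a partner of Jun proteins, was not called. It stood at 1265, 945 and 1796 CPM in WT and at 1939, 912 and 1285 CPM in the ING4-/- libraries. The genotypes overlapped, with the highest value in ING4-/- LT-HSCs and the lowest in ING4-/- ST-HSCs. The log2 fold change was 0.05 ± 0.33 (SE, adjusted p = 0.917, edgeR).

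Junb stood at 439, 269.9 and 537 CPM in WT and at 935, 226 and 307 CPM in ING4-/-. The ING4-/- LT-HSC library was above every other library, and the other two ING4-/- libraries fell within or below the WT range. Its log2 fold change was 0.24 ± 0.55 (SE, adjusted p = 0.732, edgeR), with a spread of 388 CPM (SD) among ING4-/- libraries against 135 CPM in WT. Junb shares 7.52% of its exonic bases with Prdx2 on the opposite strand.

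The low-tier AP-1 members had positive log2 fold changes that were not called. Atf3, which is induced by stress signalling and can repress as a homodimer, stood at 35.2, 10.1 and 15.3 CPM in WT and at 67.9, 35.1 and 17.4 CPM in ING4-/-. Fosb stood at 20.7, 49.8 and 39.0 CPM in WT and at 60.2, 24.1 and 55.4 CPM in ING4-/-. Jund, usually the least inducible Jun protein, stood at 1.37, 6.24 and 9.12 CPM in WT and at 8.63, 9.20 and 17.2 CPM in ING4-/-. In all 3 the genotypes overlapped, with ST-HSCs lowest for Fosb in ING4-/- and LT-HSCs lowest for Jund in both genotypes. The log2 fold changes were 0.99 ± 0.68 (SE) for Atf3, 0.35 ± 0.49 for Fosb and 1.06 ± 0.79 for Jund, with edgeR adjusted p of 0.245, 0.567 and 0.280, and that of Fosb was -0.15 with at least 10 counts in each library. With 1 library left out they ranged from 0.40 to 1.66 for Atf3, 0.04 to 0.69 for Fosb and 0.58 to 1.47 for Jund, and none was called.

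Egr1, a zinc finger transcription factor that MAP kinase signalling induces and that is known to hold stem cells in quiescence, stood at 1127, 511 and 904 CPM in WT and at 777, 293 and 335 CPM in ING4-/-. The ING4-/- value was the lower of the pair in each population, but ING4-/- LT-HSCs were above WT ST-HSCs. The log2 fold change was -0.86 ± 0.45 (SE, adjusted p = 0.134, edgeR), short of both thresholds. It was called lower when each library had to hold at least 10 counts (-1.35, adjusted p = 0.0482), when the background was subtracted (-1.63, adjusted p = 0.0204), and without the ING4-/- LT-HSC library (-1.41, adjusted p = 0.00862). Other edgeR runs weakened it. It read -0.26 under upper-quartile normalization (adjusted p = 0.634) and -0.59 without the WT LT-HSC library (adjusted p = 0.345). Without the ING4-/- ST-HSC library it read -0.59 (adjusted p = 0.302), and without the ING4-/- MPP library -0.64 (adjusted p = 0.297). Egr1 to Fos, per kb within a library, was 0.467, 0.284 and 0.264 in WT and 0.210, 0.169 and 0.137 in ING4-/-, again with no overlap, as for 33.5% of all genes relative to Fos.

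Ier2, a small nuclear protein of the same early wave, stood at 453, 454 and 755 CPM in WT and at 752, 346 and 369.6 CPM in ING4-/-. Here the highest WT value (MPPs) and the highest ING4-/- value (LT-HSCs) were nearly alike. The log2 fold change was -0.18 ± 0.36 (SE, adjusted p = 0.694, edgeR).

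The feedback inhibitors were not called either. Dusp1, a phosphatase that switches MAP kinases off, stood at 940.0, 619 and 1128 CPM in WT and at 1744, 913 and 893 CPM in ING4-/-. Zfp36 (tristetraprolin), which binds AU-rich elements and speeds the decay of cytokine and early-response mRNAs, stood at 578, 364 and 663 CPM in WT and at 761, 285 and 437 CPM in ING4-/-. For both genes the highest library was ING4-/- LT-HSC, and the remaining ING4-/- values lay within or below the WT range. The log2 fold changes were 0.40 ± 0.33 (SE, adjusted p = 0.330) for Dusp1 and -0.11 ± 0.39 (adjusted p = 0.821) for Zfp36, both from edgeR, and that of Dusp1 was -0.38 with the background subtracted.

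**Figure D3:**
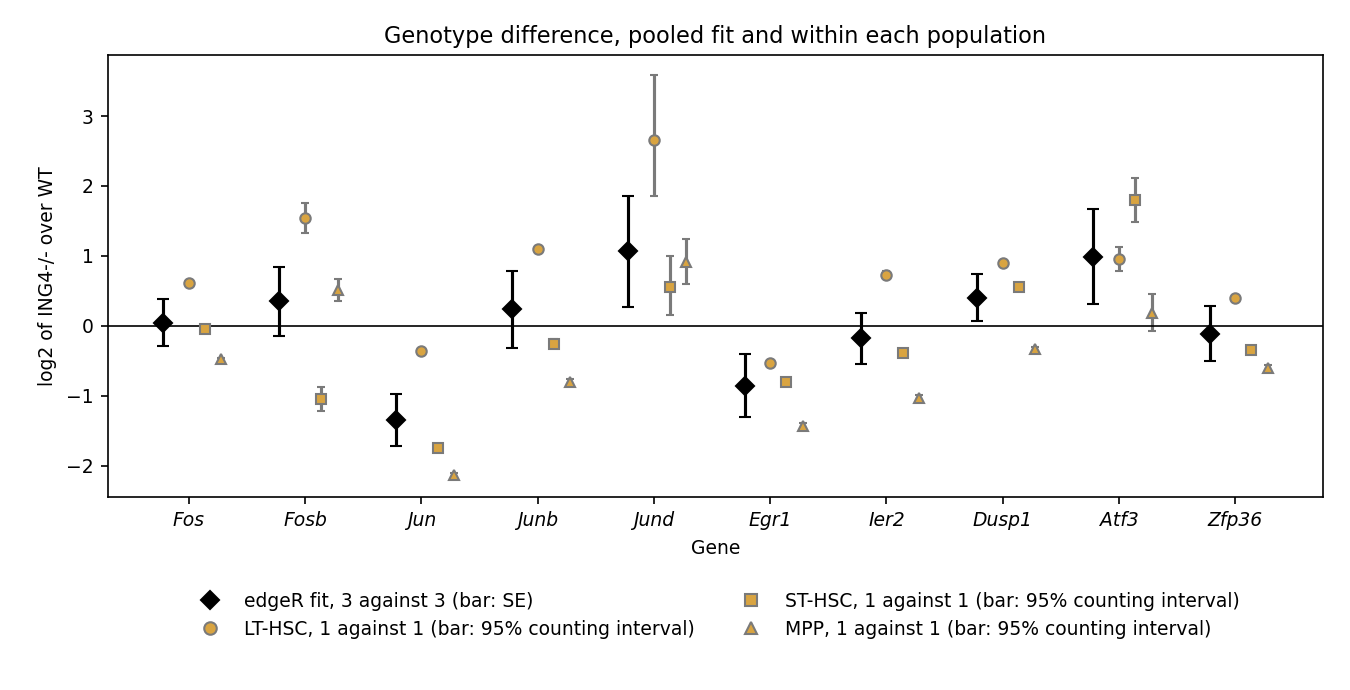
Difference between genotypes for each gene as log2 of ING4-/- over WT. Black diamonds are the edgeR estimate over 3 against 3 libraries with its SE, and filled symbols are the ratio of 1 library to 1 library in each population with its 95% counting interval. Jun reads -0.37 for LT-HSCs, -1.75 for ST-HSCs, -2.13 for MPPs, and 8 of 10 genes are above 0 in LT-HSCs against 3 of 10 in ST-HSCs and in MPPs.

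Within a population each genotype had 1 library, so that the ratios are descriptions with no replicate check. In LT-HSCs, 8 of the 10 genes were higher in ING4-/- (median log2 ratio 0.81), all but Jun and Egr1. In ST-HSCs and in MPPs 7 of the 10 were lower (medians -0.30 and -0.54). For the 9673 genes that reached 10 counts in all libraries, the median log2 ratios were 0.56, 0.60 and 0.38, so that the median of the members was above that of all genes in LT-HSCs and below it in ST-HSCs and MPPs. Single members departed from this, with Jun, Egr1 and Zfp36 below the median gene in LT-HSCs, Atf3 above it in ST-HSCs (1.79), and Fosb and Jund above it in MPPs (0.51 and 0.91). The difference between populations in the genotype ratio was not tested, since no residual degree of freedom remains for it.

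By gene, the log2 ratio of Jun ran from -0.37 in LT-HSCs (counting interval -0.40 to -0.34) to -2.13 in MPPs (-2.16 to -2.11). Junb read 1.09, -0.26 and -0.81, Ier2 0.73, -0.39 and -1.03, and Fos 0.62, -0.05 and -0.48. Dusp1 read 0.89, 0.56 and -0.34, and Zfp36 0.40, -0.35 and -0.60. These 6 genes and Egr1 (-0.54, -0.80 and -1.43) each had their highest ratio in LT-HSCs and their lowest in MPPs.

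The order of the populations was then compared within each genotype. In ING4-/-, LT-HSCs held the highest value for 9 of the 10 genes, all but Jund, against 34.8% of the 9673 genes that reached 10 counts in all libraries. ST-HSCs held the lowest value for 7 of the 10, against 29.6%. In WT, MPPs held the highest value for 7 of the 10, against 48.0%, and the lowest for 0, against 18.7%. The lowest WT value was in ST-HSCs for 6, against 36.5%, and in LT-HSCs for 4, which is near the 44.8% of all genes.

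In ING4-/- cells the step from ST-HSCs up to LT-HSCs was 4.13-fold for Junb, 2.67-fold for Zfp36, 2.65-fold for Egr1, 2.40-fold for Jun and 2.13-fold for Fos. In WT cells the same step was 1.63-fold for Junb, 1.59-fold for Zfp36, 2.20-fold for Egr1, 0.920-fold for Jun and 1.34-fold for Fos. Summed over the 10 genes, TMM-normalized CPM was 6351, 4850.2 and 8377 in WT and 8199, 3525 and 4293 in ING4-/-. ST-HSCs thus had the lowest sum in both genotypes, while the highest sum was in MPPs for WT and in LT-HSCs for ING4-/-. In bulk libraries such as these, fewer cells carrying a transcript and less of it per cell cannot be told apart.

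**Figure D4:**
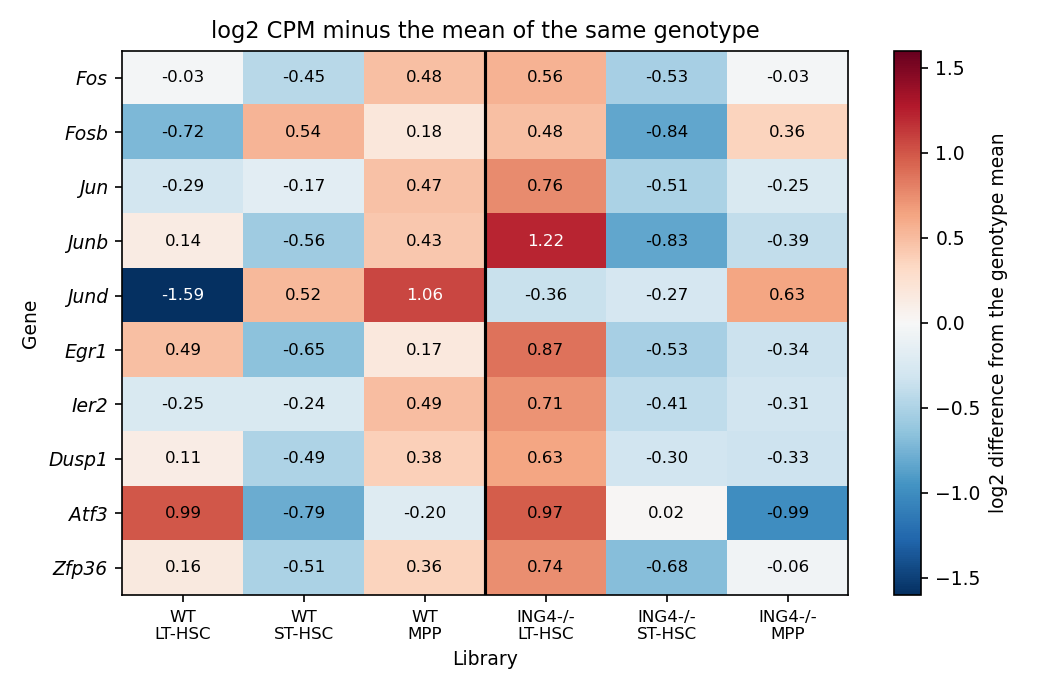
Population pattern of each gene, as log2 TMM-normalized CPM minus the mean of the same genotype, with libraries in columns and genes in rows. ING4-/- LT-HSCs are positive for 9 of the 10 genes, from 0.48 for Fosb to 1.22 for Junb, and Jund is the exception at -0.36.

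Contrasts between populations, fitted over both genotypes with genotype as a covariate, called none of the 10 genes and none of the 36170 genes tested (0% called in each contrast, adjusted p = 1 for every member, edgeR). At an unadjusted p under 0.05 there were 624 genes for LT-HSCs against ST-HSCs, 564 for LT-HSCs against MPPs and 183 for ST-HSCs against MPPs, and among them were 5, 1 and 2 of the 10 genes. DESeq2 called 283, 435 and 168 genes in the same contrasts, and 0 of the 10. For LT-HSCs against ST-HSCs the log2 fold changes of the members had a median of 0.79 and 8 of 10 were positive, whereas the median of all genes tested was -0.11. Egr1 read 1.29 ± 0.24 (SE), Zfp36 1.07 ± 0.27, Junb 1.47 ± 0.46 and Fos 0.79 ± 0.26 in this contrast. Against MPPs, ST-HSCs were lower for 9 of 10 (median -0.51, all genes 0.03). Without the ING4-/- LT-HSC library, the median for LT-HSCs against ST-HSCs was 0.33, with 6 of 10 positive, and without the WT LT-HSC library it was 1.38, with 9 positive. The median for ST-HSCs against MPPs was -0.11, with 4 of 10 positive, without the WT MPP library, -0.97, with 0 positive, without the ING4-/- MPP library, and -0.82, with 1 positive, without the WT ST-HSC library. For LT-HSCs against MPPs the median was 0.24 with 8 positive, and it became -0.28 with 2 positive without the ING4-/- LT-HSC library and -0.16 with 3 positive without the ING4-/- MPP library. It rose to 0.94 with 9 positive without the WT LT-HSC library and to 0.78 with 8 positive without the WT MPP library.

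Genes related to the members were read from lists written by name, and the counts called in each stand against the 7.98% higher and 56.7% lower among all 31001 genes tested. Of 17 other immediate-early transcription factors, 15 were tested between genotypes and 1 was called, with a median log2 fold change of -0.01. That gene was Klf4, with 83, 71 and 62 counts in WT, where the background would give 69.1, 70.0 and 55.9, and 2 counts in each ING4-/- library. Nr4a1, an orphan nuclear receptor of the same wave, read -0.07 ± 0.53 (SE, adjusted p = 0.920, edgeR), and Myc, which drives ribosome synthesis and growth, read 0.87 ± 0.19 (adjusted p = 0.00463), under the fold threshold. In LT-HSCs against ST-HSCs the 16 members of this list tested had a median of 1.05, with 14 positive and none called.

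Among 36 other immediate-early effector and feedback genes, 35 were tested, 4 were called lower and none higher, with a median of 0.42. Ppp1r15a, the phosphatase subunit that ends the integrated stress response, was the abundant gene among them. Its counts were 7708, 3794 and 5296 in WT and 10783, 3977 and 5354 in the much deeper ING4-/- libraries, for a log2 fold change of -1.47 ± 0.44 (SE, adjusted p = 0.0204, edgeR). Per1, a clock repressor, was called at -1.52 ± 0.51 (adjusted p = 0.0335). The other two were Plk3 and Spry4. Plk3 had WT counts below the background for its length, and Spry4, an inhibitor of receptor kinase signalling, had 298, 79 and 96 counts in WT, where the background would give 104, 105 and 84.1.

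Of 17 other AP-1 and bZIP subunits, all were tested, 3 were called higher and 1 lower (median -0.32). Batf, which pairs with Jun proteins in lymphoid cells, went from 27.98 ± 5.67 CPM (SD, n = 3) in WT to 68.0 ± 4.47 CPM in ING4-/-, a log2 fold change of 1.28 ± 0.30 (SE, adjusted p = 0.00605, edgeR). Atf1, a CREB relative, read 1.04 ± 0.33 (adjusted p = 0.0264). Maf, called lower, was at 190 to 304 counts in WT, where the background would give 151 to 189, and at 0 to 33 counts in ING4-/-.

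Upstream of the members, 25 kinase genes were tested, of which 5 were called higher and 2 lower (median 0.48), where 7.98% and 56.7% of all genes were. Mapkapk2, a kinase activated by stress MAP kinases, rose from 14.3 ± 1.28 CPM (SD, n = 3) to 41.97 ± 5.66 CPM, a log2 fold change of 1.55 ± 0.37 (SE, adjusted p = 0.00699, edgeR). Map2k2, which encodes a MAP kinase kinase, rose by 1.20 ± 0.32 on the log2 scale (adjusted p = 0.0129). Mapk8, which encodes JNK1, a kinase that phosphorylates Jun, had 461, 541 and 393 counts in WT, where the background would give 209.9, 212 and 169.6, and 187, 266 and 436 in ING4-/-. Its log2 fold change was -2.41 ± 0.46 (adjusted p = 0.00241). Rps6ka2 was below the background in WT and at 0 counts in all ING4-/- libraries.

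Factors that sit at immediate-early promoters gave 14 tested genes with 3 called lower and none higher (median -0.44). Ep300, the p300 acetyltransferase, had 687, 737 and 942 counts in WT, where the background would give 324, 328 and 261, and 244, 54 and 857 in ING4-/- (log2 fold change -2.81 ± 0.88, adjusted p = 0.0251, edgeR). Ets1 (-1.35 ± 0.40) and Mrtfb (-1.06 ± 0.38) were the others. The share of these WT counts that comes from the background was not tested.

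Heat shock genes, which tissue dissociation also induces, gave 4 higher and none lower of 15 tested (median 0.85), against 7.98% higher and 56.7% lower of all genes. Hspa8, the constitutive chaperone, went from 900.5 ± 154 CPM (SD, n = 3) to 2586 ± 227 CPM, a log2 fold change of 1.52 ± 0.16 (SE, adjusted p = 0.000657, edgeR), and Hspe1 read 2.28 ± 0.38 (adjusted p = 0.00123). Hspa1b, an inducible chaperone, was at 11 to 16 counts in WT and 140 to 481 in ING4-/- libraries. Hspa1a, its near-identical neighbor, had 1, 8 and 11 counts in WT and 1528, 199 and 1 in ING4-/-, and was not called (adjusted p = 0.0827). Reads shared between Hspa1a and Hspa1b may have been split or dropped in counting, so their separate levels are uncertain. Of the ING4-/- libraries, the LT-HSC library held the most Hspa1a counts and the highest value of 9 of the 10 immediate-early genes. It also held the lowest Hspa8 (2335 CPM, against 2776 in ST-HSCs and 2646 in MPPs) and the lowest Hspe1 (159 CPM, against 354 and 229). Over both genotypes, 5 of the 15 heat shock genes were positive and 10 negative for LT-HSCs against ST-HSCs (median -0.12). Against MPPs 6 were positive and 9 negative (median -0.16). The part of cell handling in any of these values was not tested.

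Markers of other marrow cells were read beside these results. Their summed CPM was 50.4 to 175 (WT) and 87.6 to 205 (ING4-/-) for 9 erythroid genes, and 109 to 338 and 368 to 669.6 for 10 granulocyte genes. For the other lists the WT and ING4-/- ranges were 80.0 to 109 and 25.1 to 52.0 (monocyte and macrophage), 117 to 141 and 91.99 to 132 (B cell), 98.7 to 178 and 61.5 to 308 (T and NK cell), 295 to 431 and 311 to 1303 (platelet and megakaryocyte), and 221 to 246 and 59.4 to 104 (stromal and endothelial). By list, 4 of 9 erythroid genes tested were called higher and 1 lower, 2 and 1 of 9 granulocyte genes, 0 and 2 of 10 monocyte and macrophage genes, 1 and 7 of 10 B cell genes, 0 and 6 of 9 T and NK cell genes, 3 and 1 of 10 platelet and megakaryocyte genes, and 0 and 4 of 9 stromal and endothelial genes. Those called higher were the globin genes Hba-a1, Hba-a2, Hbb-bs and Hbb-bt, the granule and alarmin genes Prtn3 and S100a8, the platelet genes Pf4, Gp1bb and Gp5, and the B cell receptor subunit gene Cd79b. Hba-a1 had 11, 11 and 21 counts in WT and 842, 1812 and 531 in ING4-/-, and Pf4 had 200, 450 and 159 and 1958, 12293 and 2212. Cd79b had 256, 244 and 324 counts in WT and 3508, 2548 and 2191 in ING4-/-, whereas Cd79a, Ms4a1, Pax5, Ebf1 and Igll1 of the same list were at 0 in all 3 ING4-/- libraries. Csf1r and Ccr2 of the monocyte list and Cd3e, Cd3g and Cd8b1 of the T cell list were at 0 there too. The platelet sum was highest in ST-HSCs of both genotypes, where 7 of the 10 immediate-early genes were lowest in ING4-/-. The part of other cell types in the values of the 10 genes was not tested.

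The genes closest to the mean pattern of the 10 over the 6 libraries were found by the root mean square difference of log2 CPM, centered within each genotype, among those 9673 genes. Among the 5 nearest outside the 10 were Pecam1 at 0.036, Cyhr1 at 0.064, Cfap43 at 0.072 and Zdhhc7 at 0.077. The members themselves ranked 23 (Ier2) to 8291 (Jund) of the 9673 genes, so that many other genes shared the mean pattern more closely than they did. They lay at 0.10 for Ier2, 0.11 for Fos and for Jun, 0.16 for Dusp1 and 0.17 for Zfp36. Egr1 and Junb followed at 0.32 each, then Fosb at 0.51, Atf3 at 0.69 and Jund at 0.92. The 3 least alike were the low-tier genes, whose WT counts lay nearest the background.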

How the data were processed

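RNA was taken from sorted LT-HSCs, ST-HSCs and MPPs of WT and ING4-/- mice, 1 library each, and library construction, HiSeq sequencing and counting were done by a sequencing company. The authors deposited raw read counts per gene, with exonic length, against mm10 per the labels; the aligner, counter, strand setting and annotation release are not given in the sources used here. All 49315 genes named a gene identifier, and 49056 were matched to GENCODE M21 for symbols.

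Counts were fitted in edgeR 4.0.16 (R 4.3.3; TMM, filterByExpr, quasi-likelihood F test, Benjamini-Hochberg over all genes tested) and called at an adjusted p under 0.05 with an absolute log2 fold change over 1. ING4-/- was compared with WT over 3 libraries each, with the populations standing in for replicates, so p-values measure the spread between populations rather than between animals. Population contrasts used 2 libraries each with genotype as a covariate. Libraries of the same genotype differed by more than sampling noise. Deviations from the genotype mean correlated between the genotypes at 0.151 (LT-HSCs), 0.118 (ST-HSCs) and 0.126 (MPPs) over 9673 genes, so that population weakly pairs the libraries. The main genotype fit left this pairing out, and a population block was run as an alternative. Background density was taken from 1702 receptor genes. The fits were tested on simulated data with known fold changes. Alternatives were DESeq2 1.42.0, other scalings and filters, background subtraction, and each library left out.

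The genes, gene lists and tests were chosen with earlier results of these data known. Named beside the 10 genes were Ing4, up to 3 called genes with the highest and up to 3 with the lowest log2 fold change per list, a set of AP-1, immediate-early and heat shock genes written by name, and the 5 genes of most similar profile. Some genes so named are not reported here. Of 217 listed symbols 216 were found, 4 of them under a newer symbol.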

Additional observations from a re-analysis of the deposited data

Results flagged for a closer look

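Fosb, a Fos relative that replaces Fos in AP-1 after repeated stimulation, moved in opposite directions by more than 1 on the log2 scale, and the difference was not tested because each combination had 1 library. On the log2 scale, ING4-/- over WT read 1.54 for LT-HSCs and -1.05 for ST-HSCs. Put the other way, LT-HSCs over ST-HSCs read -1.26 in WT and 1.32 in ING4-/-. Fosb had 197 counts in WT LT-HSCs, where the background would give 142, and 463 in WT ST-HSCs, where it would give 143. With the background subtracted, these genotype ratios became 3.36 and -0.51. No other member showed such a pair of opposite moves.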

How the results depend on the processing

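The number of the 10 genes called between genotypes was 1. It was 0 under upper-quartile normalization and with LT-HSCs and ST-HSCs only (Jun -1.10, adjusted p = 0.0934). It was 2, Jun and Egr1, with at least 10 counts in every library, with the background subtracted, and under both alternatives chosen after seeing the data, which joined the minimum of 10 counts to the population block or to background subtraction. Leaving out each library gave 0 to 2, 0 without the WT MPP library and 2 without the ING4-/- LT-HSC library. Jun ranged from -1.80 to -1.10 with a library left out (adjusted p 0.00126 to 0.0539) and from -2.21 to -0.75 otherwise, and the cause of the lost calls was not tested. DESeq2 gave Jun -1.65 (adjusted p = 0.00353).

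Over all genes, 20041 were called between genotypes, and 1739 with at least 10 counts in every library, 8688 with the background subtracted, 1718 with that minimum and the population block, and 793 with the background subtracted and that minimum, where fewer genes were tested. The median log2 fold change of all genes was -6.85 with TMM, -7.17 with DESeq2 size factors and -6.35 with upper-quartile scaling, and 6, 4 and 8 of the 10 genes were above 0. Fos, Junb, Ier2 and Zfp36 changed sign with scaling, each uncalled, so no direction is given for them. Dusp1 was opposite in sign in 4 of 16 alternatives (-0.38 with the background subtracted, -0.47 with that and the minimum of 10 counts) and Fosb in 2 (-0.15 with the minimum of 10 counts), so none is given for these either. The genes called higher were 2475, 1342 and 4556. With population as a replicate block the 10 genes gave 1 call, again Jun, and no other call changed among them.

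Between populations, DESeq2 called 435 genes for LT-HSCs against MPPs, 283 for LT-HSCs against ST-HSCs and 168 for ST-HSCs against MPPs, and the minimum of 10 counts gave 2 for LT-HSCs against MPPs, in place of 0. No alternative called any of the 10 genes there. Background subtraction moved the levels of Fosb, Jund and Atf3 in WT by more than their counting intervals. Precision for low genes was limited by the WT libraries, which were the shallower and carried the background.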
